A study of Mus musculus with 8 samples.

Results

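The genes described here are 10 genes of the response to endoplasmic reticulum stress and amino acid shortage: Atf4, Atf3, Ddit3, Xbp1, Ppp1r15a, Trib3, Hspa5, Herpud1, Asns and Chac1. They were taken by symbol from a count table of 24421 genes, and all 10 had enough reads to be tested among 12254 genes. They were chosen by hand with earlier results of these counts known, so their own fold changes and calls are given as a description and not as a test. The RNA came from magnetically isolated bone marrow neutrophils of 8-week-old female C57BL/6 mice, in 4 groups of 2 libraries. WT neutrophils and neutrophils of Padi4 KO mice, which lack exon 1 of the gene for the citrullinating enzyme PAD4, were left unstimulated or were cultured with R848 at 1.0 µg/ml for 6 h. R848 is a synthetic agonist of Toll-like receptor 7. For the unstimulated libraries the titles give 0 h and the protocol gives 6 h, so if the titles hold, each R848 response also includes 6 h in culture. The labels do not tie the libraries to separate mice, and the spread between duplicates may be technical.

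In the integrated stress response, one of several kinases (PERK, GCN2, PKR or HRI) phosphorylates the translation factor eIF2, which lowers protein synthesis but lets the mRNA of the transcription factor ATF4 be translated. ATF4 then switches on genes for amino acid uptake and synthesis, tRNA charging and glutathione turnover, together with the factors ATF3 and CHOP (Ddit3) and the inhibitors GADD34 (Ppp1r15a) and TRIB3. The other branches of the unfolded protein response run through ATF6 and through IRE1, whose splicing of Xbp1 mRNA yields the active factor XBP1, and they act on ER chaperones such as BiP (Hspa5) and on degradation components such as HERP (Herpud1). Counts per gene show the amount of each mRNA. They show neither the translation of Atf4 nor the splicing of Xbp1.

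Sequences upstream of 6 of the 10 genes held an exact match to a known element of these pathways, and they are printed to show which of the genes described below carry which element. The 250 bases upstream of each RefSeq start site (GRCm38.p6) were searched on both strands for 4 elements. The first was TGATGNAA, the C/EBP-ATF response element bound by ATF4 dimers. The second was ERSE, which is CCAAT and CCACG with 9 bases between them, and the third was ERSE-II, which is ATTGG and CCACG with 1 base between them. The last was the cyclic AMP response element, TGACGTCA. The first element was found in 4 of the 10 genes and in 3.45% of 32851 promoters, and ERSE was found in 1 gene and 0.113% of promoters. ERSE-II was found in 1 gene and 0.0304% of promoters, and the cyclic AMP response element in 1 gene and 1.55% of promoters. Each sequence below has 30 bases of the gene's own strand, 5′ to 3′, with the element in capitals. The matched letters of TGATGNAA are read on the opposite strand in Atf3, Herpud1 and Chac1.
Atf3, chr1:191183425-191183454, minus strand: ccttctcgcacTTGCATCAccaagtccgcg
Herpud1, chr8:94386306-94386335, plus strand: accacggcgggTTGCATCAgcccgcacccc
Asns, chr6:7693214-7693243, minus strand: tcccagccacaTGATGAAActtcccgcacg
Chac1, chr2:119351038-119351067, plus strand: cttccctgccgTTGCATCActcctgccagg
Hspa5 with ERSE, chr2:34772020-34772049, plus strand: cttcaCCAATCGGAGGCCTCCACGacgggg
Herpud1 with ERSE-II, chr8:94386368-94386397, plus strand: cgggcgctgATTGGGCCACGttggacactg
Ppp1r15a with the cyclic AMP response element, chr7:45526269-45526298, minus strand: gagaccccgcctctccggTGACGTCAgcac
The windows of Asns and Hspa5 lie inside an exon of the GENCODE annotation, which starts these genes further upstream, and the other windows lie outside the exons of their gene. No exact match to any of the 4 elements was found in the windows of Atf4, Ddit3, Xbp1 and Trib3. A match describes these letters only, and binding was not measured.

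The 8 libraries held between 562446 and 1177972 counts on genes, and a count of 3 corresponds to between 2.18 and 6.12 CPM, the count of a gene after correction for library depth. Padi4 had 527 to 590 counts in unstimulated WT neutrophils and 166 to 234 in WT neutrophils with R848, against 21 to 54 in the 4 Padi4 KO libraries. Duplicates were close to counting noise: the chi-square statistic per gene of a pair was 1.05 to 1.19 in 3 groups and 1.83 in R848-treated WT neutrophils. The R848-treated WT pair thus stood apart, and values that turn on 1 of its libraries are given with that library left out. The 12 neutrophil markers with a row in the table summed, as group means, to 166100.2 CPM in unstimulated and 160428 CPM in R848-treated WT neutrophils, and to 133966 and 125717 CPM in Padi4 KO neutrophils. Of these 12, 11 were called lower in Padi4 KO neutrophils without stimulation and 10 after R848. Erythroid markers differed between the genotypes (9 of 16 detected, with the globin genes at 0 in all libraries). Their summed level was 23.9 to 85.8 CPM in the WT libraries and 779 to 1106 CPM in the Padi4 KO libraries. The 10 monocyte markers summed to 945 to 1154 CPM in the WT and 1535 to 2379 CPM in the Padi4 KO libraries. Plasma cell markers, of which 9 of 10 had a row, summed to 52.4 to 115.6 CPM and 127.0 to 194.1 CPM. Jchain held 711 of their counts over all libraries, and the next highest, Cd79a, held 33. Called higher in Padi4 KO neutrophils were 8 of 9 erythroid, 8 of 10 monocyte and 1 of 8 tested plasma cell markers without stimulation. After R848 these were 9, 6 and 1, beside 9.54% (unstimulated) and 9.44% (R848) of all genes. With R848 in WT neutrophils, 2 monocyte markers were called higher, among them Csf1r (2.72 ± 0.12), and 4 lower, beside 7.18% and 10.8% of all genes. The part of these cells in the results below was not tested, and in bulk RNA fewer cells of a type and less RNA per cell cannot be told apart.

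Per kilobase of exon, the 10 genes spanned a wide range of levels. In unstimulated WT neutrophils the mean level was 67.6 CPM per kb for Atf4, 56.1 for Hspa5, 36.8 for Xbp1 and 29.5 for Herpud1. Ddit3, at 8.94 CPM per kb, Asns, at 7.43, and Chac1, at 4.83, followed with overlapping libraries. Ppp1r15a stood at 2.75 CPM per kb, and Atf3 and Trib3, at 0.40 and 0.36, were under the level of 3 counts. After R848 the order in WT neutrophils was Atf4 (168 CPM per kb), then Herpud1 (96.1) and Hspa5 (79.4) with overlapping libraries. In R848-treated Padi4 KO neutrophils Asns, at 39.4 CPM per kb, came next after Atf4 (106), Herpud1 (85.4) and Hspa5 (70.9), and Trib3 was at 10.2.

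**Figure D1:**
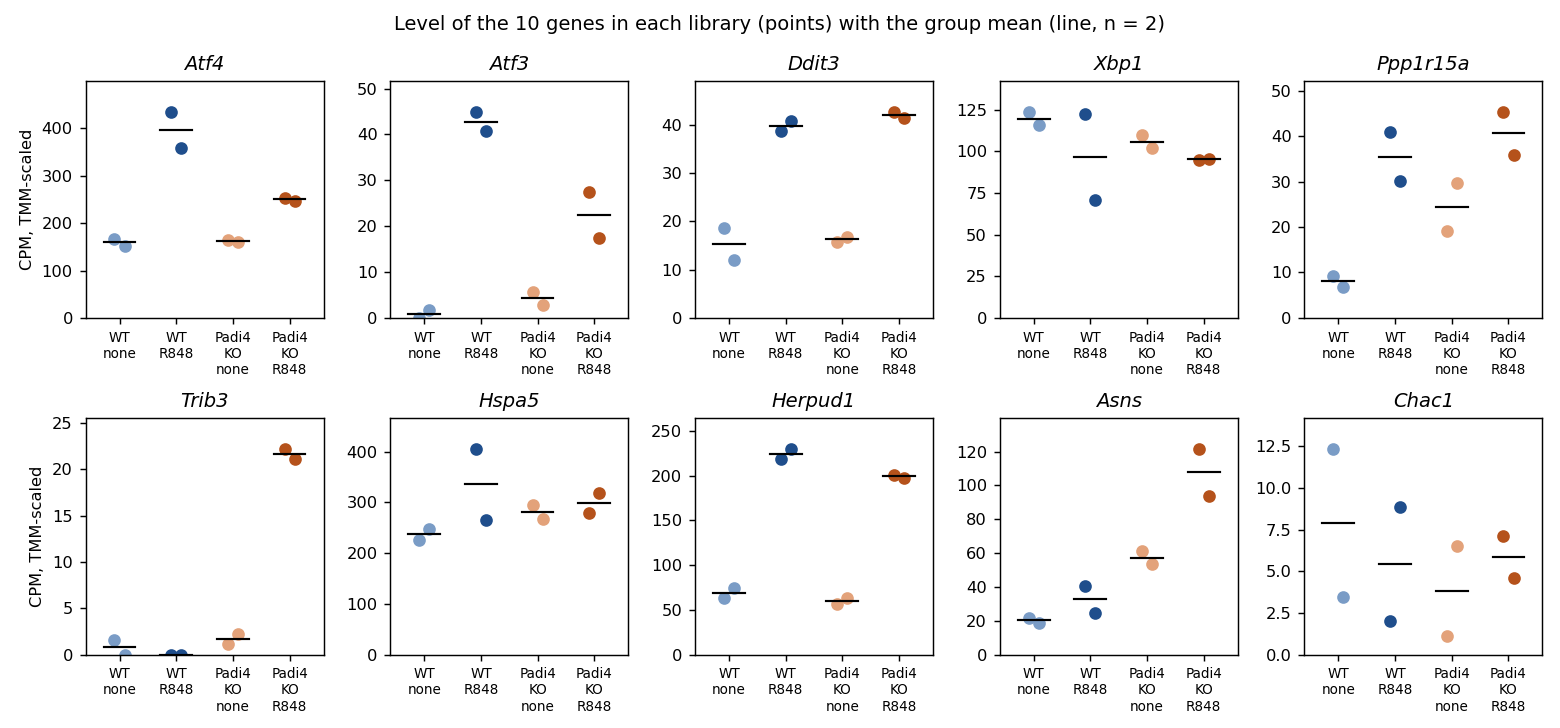
Each panel shows 1 gene, with the level in CPM (scaled with TMM factors, linear axis from 0) of the 2 libraries of each group as points and the group mean as a line. Atf4 lies between 359 and 435 CPM in R848-treated WT and between 247 and 254 CPM in R848-treated Padi4 KO neutrophils, and Trib3 is above 3 CPM in R848-treated Padi4 KO neutrophils alone.

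Atf4, on the plus strand of chromosome 15 from 80255184 to 80257541 (GRCm38, GENCODE), rose with R848 in WT neutrophils. Its level was 167.0 and 151.8 CPM in the 2 unstimulated WT libraries and 434.8 and 359.2 CPM after R848. In Padi4 KO neutrophils it was 165.0 and 159.5 CPM without stimulation and 254.1 and 247.1 CPM after R848. The 4 unstimulated libraries thus had nearly the same level, and after R848 both WT libraries lay above both Padi4 KO libraries. The log2 fold change with R848 was 1.31 ± 0.13 (SE) in WT and 0.63 ± 0.11 in Padi4 KO neutrophils. Atf4 passed the false discovery rate of 0.1 in both, but only the WT response was more than 2-fold, which a called R848 response also required. With library size alone the WT value was 0.999, and that call was lost. The difference between the responses, Padi4 KO minus WT, was -0.67 ± 0.18, and Atf4 was the only 1 of the 10 genes called in that comparison. Genes with fewer counts had larger fitted differences in either direction that were not called. Atf3, for example, had -3.01 ± 1.18 with 13.1 counts on average, against 191.6 for Atf4. DESeq2 gave no adjusted p for 6 of the 10 genes in that comparison. Background for that comparison was 1.26% of all tested genes called lower and 3.44% called higher, and nothing is read from the count because the genes were chosen with this contrast known. The balance over all genes turned to 1.90% lower and 1.31% higher with relative log expression factors, to 0.734% and 0.286% with DESeq2, which gave no adjusted p for 9503 of the 12254 genes, and to 1.89% and 0.433% without R848-treated WT replicate 1 or 2.84% and 1.01% without replicate 2. Leaving out each library in turn gave differences from -1.04 to -0.61. Relative to the median of all genes the difference was -0.85 with TMM factors, with relative log expression factors and with library size alone.

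Atf3 encodes an ATF4-induced transcription factor that is also switched on by Toll-like receptors, and its mRNA was nearly absent from unstimulated cells. It had 0 and 1 counts in unstimulated WT libraries (0 and 1.73 CPM) and 22 and 23 counts after R848 (44.9 and 40.7 CPM). Padi4 KO neutrophils had 5 and 4 counts (5.65 and 2.90 CPM) without stimulation and 31 and 19 counts (27.5 and 17.5 CPM) after R848. Groups with and without R848 did not overlap in either genotype, and after R848 the Padi4 KO libraries lay below the WT libraries. In WT neutrophils 45 counts against 1 corresponded to a 52.3-fold ratio with an exact 95% interval of 8.92 to 2112 for counting error, and the fitted log2 value of 5.47 ran from 4.52 to 8.24 with 1 or the other unstimulated WT library left out, the higher of which is set against a count of 0 and is no bound. The log2 fold change in Padi4 KO neutrophils was 2.46 ± 0.45. After R848 the Padi4 KO against WT value was -0.91 ± 0.31. That call was lost with DESeq2 (-1.02), with library size alone (-0.70), without R848-treated WT replicate 1 and without R848-treated Padi4 KO replicate 2. Values without 1 library ranged from -1.28 to -0.62.

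Ddit3, encoding CHOP, a factor linked to stress-induced cell death, rose in both genotypes. Its level was 18.6 and 12.1 CPM in unstimulated WT, 38.8 and 40.7 CPM in R848-treated WT, 15.8 and 16.7 CPM in unstimulated Padi4 KO and 42.6 and 41.3 CPM in R848-treated Padi4 KO neutrophils. Every R848 library lay above every unstimulated library. The log2 fold change was 1.35 ± 0.39 in WT and 1.35 ± 0.27 in Padi4 KO neutrophils, where library size alone gave 0.98 and no call.

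Xbp1, whose spliced mRNA encodes the factor of the IRE1 branch, was not called in any comparison. Its level was 123.7 and 115.6 CPM in unstimulated WT, 122.5 and 70.8 CPM in R848-treated WT, 109.6 and 102.2 CPM in unstimulated Padi4 KO and 95.1 and 95.5 CPM in R848-treated Padi4 KO neutrophils. The R848-treated WT libraries spanned nearly the whole range of the other groups. The log2 fold change with R848 was -0.34 ± 0.19 in WT and -0.14 ± 0.15 in Padi4 KO neutrophils. Without R848-treated WT replicate 2, the WT value was 0.13.

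Ppp1r15a encodes GADD34, which brings a phosphatase to eIF2 and so ends the translational block. It rose with R848 in WT neutrophils and stood higher in Padi4 KO than in WT neutrophils before stimulation. Its level was 9.28 and 6.90 CPM in unstimulated WT and 40.8 and 30.1 CPM in R848-treated WT neutrophils. Padi4 KO neutrophils had 19.2 and 29.7 CPM without stimulation and 45.3 and 35.8 CPM after R848. The R848-treated groups overlapped, whereas the unstimulated Padi4 KO libraries lay above the unstimulated WT libraries. With R848 it changed by a log2 fold of 2.09 ± 0.47 in WT and 0.67 ± 0.25 in Padi4 KO neutrophils. The latter passed the false discovery rate but was below 2-fold, and it was called, at 1.08, without unstimulated Padi4 KO replicate 2. The difference of the responses was -1.42 ± 0.54, not called with all libraries, but called without R848-treated WT replicate 2 (-1.87) or unstimulated Padi4 KO replicate 1 (-1.65). Without stimulation the Padi4 KO against WT value was 1.63 ± 0.44, which fell to 1.23 and was not called without unstimulated Padi4 KO replicate 2. The gene shares 12 exonic bases with Tulp2 on the opposite strand, and the strand setting of the counting is not given in the sources used here.

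Trib3 encodes a pseudokinase that binds ATF4 and CHOP and dampens their activity. Its reads came almost entirely from R848-treated Padi4 KO neutrophils. There were 1 and 0 counts in unstimulated WT, 0 and 0 in R848-treated WT, 1 and 3 in unstimulated Padi4 KO and 25 and 23 in R848-treated Padi4 KO neutrophils, the last being 22.2 and 21.1 CPM. Both R848-treated Padi4 KO libraries lay above all 6 others. In Padi4 KO neutrophils 48 counts after R848 against 4 without stimulation, where both libraries were at or under 3 counts, gave a 12.3-fold ratio with an exact 95% interval of 4.49 to 46.9 for counting error. After R848, Trib3 was at least 3.79-fold higher in Padi4 KO than in WT neutrophils, taking 3 counts per library as the limit that 0 counts allow in WT. No fold is given for the WT response, since both WT groups were at or under that limit. Trib3 is on the minus strand of chromosome 2 from 152337422 to 152344032.

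Hspa5 encodes BiP, the main Hsp70 chaperone of the endoplasmic reticulum and a standard marker of the unfolded protein response. It had the second highest level of the 10 genes per kilobase without stimulation, and at the settings used for all values here it was called in no comparison, though some alternatives given below called it. Its level was 225.8 and 248.4 CPM in unstimulated WT, 406.2 and 265.4 CPM in R848-treated WT, 294.9 and 268.3 CPM in unstimulated Padi4 KO and 279.8 and 319.7 CPM in R848-treated Padi4 KO neutrophils. In WT neutrophils the wide R848 pair lay above the unstimulated pair, and in Padi4 KO neutrophils the pairs overlapped. The log2 fold change with R848 was 0.49 ± 0.13 in WT, past the false discovery rate but under 2-fold. The Padi4 KO value was 0.10 ± 0.10, but -0.28 and past the false discovery rate under scaling by library size alone, so its direction depends on the scaling. Without R848-treated WT replicate 2, the WT value was 0.88 and the difference of the responses was -0.91 and called, against -0.39 ± 0.16 with all libraries. Relative log expression factors also called that difference, at -0.54.

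Herpud1 encodes HERP, a membrane protein that organises the removal of misfolded proteins from the endoplasmic reticulum. It rose by nearly the same amount in both genotypes. Its level was 63.4 and 74.2 CPM in unstimulated WT, 218.4 and 230.1 CPM in R848-treated WT, 56.5 and 63.1 CPM in unstimulated Padi4 KO and 200.8 and 197.5 CPM in R848-treated Padi4 KO neutrophils. No R848 library overlapped an unstimulated one. Its log2 fold change was 1.71 ± 0.18 in WT and 1.72 ± 0.14 in Padi4 KO neutrophils. It kept a called rise in both genotypes under every alternative tried. Herpud1 carries both an ATF4-type element and ERSE-II, printed above.

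Asns encodes asparagine synthetase, a classic ATF4 target induced by amino acid shortage. It was higher in Padi4 KO than in WT neutrophils both without stimulation and after R848. Its level was 21.6 and 19.0 CPM in unstimulated WT and 40.8 and 24.8 CPM in R848-treated WT neutrophils, against 61.0 and 53.7 CPM and then 121.7 and 93.7 CPM in Padi4 KO neutrophils. All 4 Padi4 KO libraries lay above all 4 WT libraries. The Padi4 KO against WT log2 fold change was 1.47 ± 0.29 without stimulation and 1.74 ± 0.24 after R848, and both were called under every alternative tried. The R848 value was 0.93 ± 0.16 in Padi4 KO neutrophils, past the false discovery rate but under 2-fold, and it was called without unstimulated Padi4 KO replicate 1 (1.00) or R848-treated Padi4 KO replicate 2 (1.10). In WT neutrophils it was 0.66 ± 0.38 and not called. It was called, at 1.10, without R848-treated WT replicate 2.

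Chac1 encodes an enzyme that degrades glutathione and is a downstream target of ATF4 and CHOP. It had 1 to 9 counts per library, and its level ranged from 1.13 to 12.4 CPM. Libraries of the same group differed as much as the groups, with 12.4 and 3.45 CPM in unstimulated WT neutrophils. No comparison called Chac1, and at this depth no difference was detectable.

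**Figure D2:**
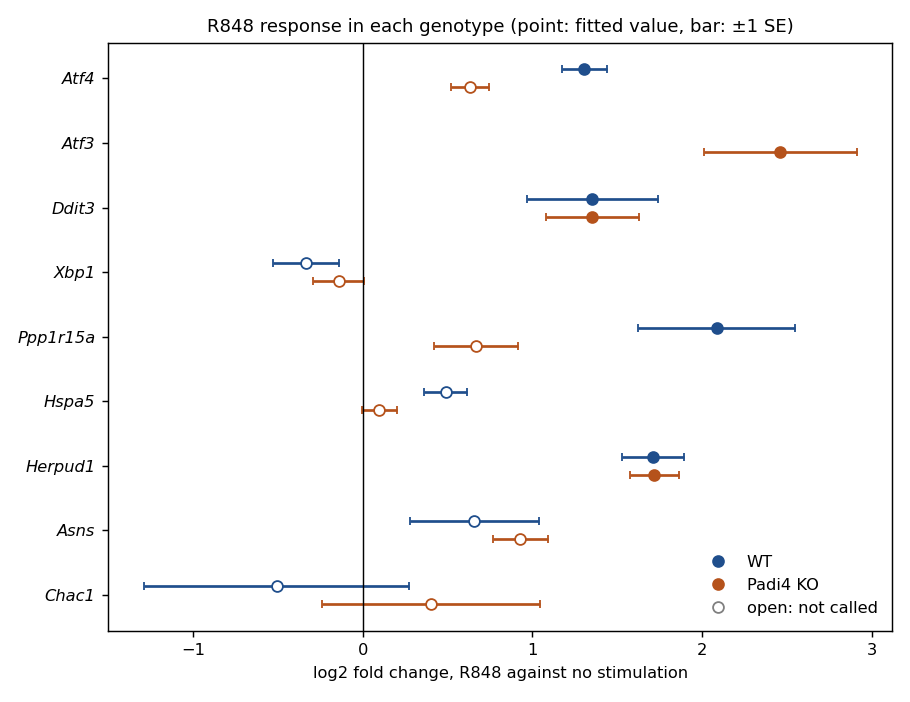
Log2 fold change of each gene with R848 against no stimulation, with 1 standard error on each side, in WT (blue) and Padi4 KO neutrophils (orange), from 2 libraries per group. Filled points passed a false discovery rate of 0.1 with a change over 2-fold, and Trib3 and the WT value of Atf3 are not drawn because unstimulated libraries held 3 counts or fewer. Herpud1 and Ddit3 have nearly the same value in both genotypes, whereas Atf4 is at 1.31 in WT and 0.63 in Padi4 KO neutrophils.

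Counted over the 10 genes, the R848 response of WT neutrophils was called higher for Atf4, Atf3, Ddit3, Ppp1r15a and Herpud1, and none was called lower. Of all genes tested, 7.18% were called higher and 10.8% lower in WT. In Padi4 KO neutrophils Atf3, Ddit3, Herpud1 and Trib3 were called higher and none lower, against 8.09% of all genes higher and 8.83% lower. The responses of WT and Padi4 KO neutrophils share no library, but each shares its libraries with the comparisons between genotypes. Among the 8 genes averaging at least 10 counts, the median log2 fold change was 1.33 in WT and 0.80 in Padi4 KO neutrophils, beside -0.07 and 0.08 over 6912 genes with that average. Nothing is read from these counts and medians, since the genes were chosen with these values known.

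**Figure D3:**
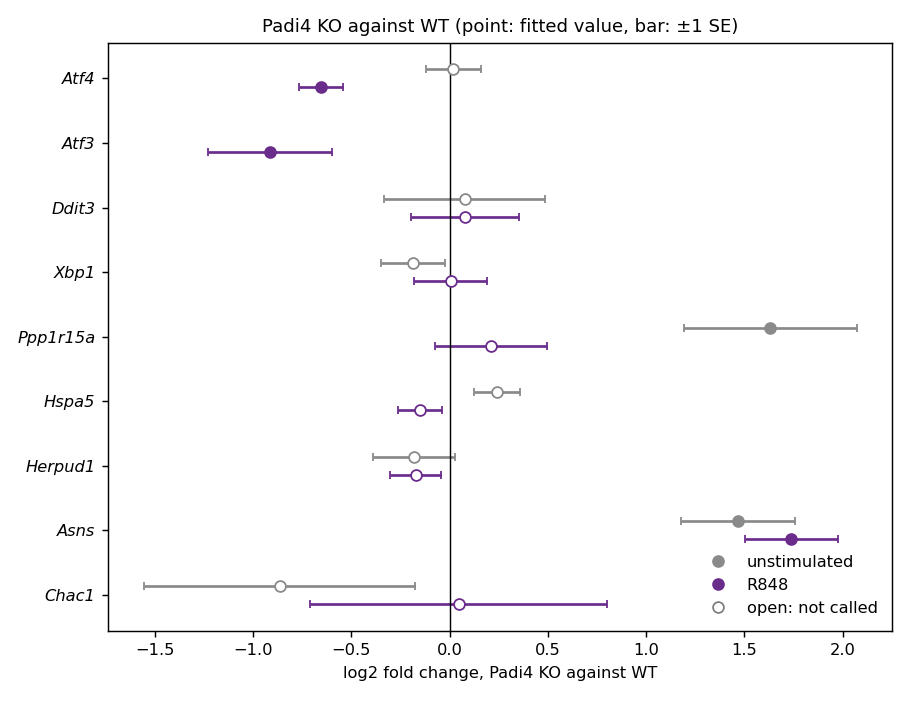
Log2 fold change of Padi4 KO against WT neutrophils, with 1 standard error on each side, without stimulation (grey) and after R848 (purple), from 2 libraries per group. Filled points passed a false discovery rate of 0.1, and Trib3 and the unstimulated value of Atf3 are not drawn because WT groups held 0 or 1 count. Asns lies at 1.47 and 1.74, and Atf4 at 0.02 without stimulation and -0.66 after R848.

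Between the genotypes, Asns and Ppp1r15a were called higher in unstimulated Padi4 KO neutrophils, where 9.54% of all genes were called higher and 14.4% lower. After R848, Asns and Trib3 were called higher and Atf4 and Atf3 lower, against 9.44% of all genes higher and 7.84% lower. The Padi4 KO against WT value of Atf4 was 0.02 ± 0.14 without stimulation and -0.66 ± 0.11 after R848. At these settings Ddit3, Xbp1, Hspa5, Herpud1 and Chac1 were called in neither state. The values of Xbp1 (-0.19 ± 0.16 without stimulation and 0.01 ± 0.18 after R848) and Herpud1 (-0.18 ± 0.21 and -0.17 ± 0.13) changed sign under some scalings in both states, and those of Ddit3 (0.08 ± 0.28), Hspa5 (-0.15 ± 0.11) and Chac1 (0.05 ± 0.75) did so after R848. Hspa5 depended on the settings in both states: its unstimulated value of 0.24 ± 0.12 was called under 6 of 15 alternatives, with up to 0.53, among them the filterByExpr filter (0.25), separate models (0.39), library size alone and the 2 that leave out an R848-treated WT library. After R848 it was called lower, at -0.52, without R848-treated WT replicate 2. The Padi4 KO libraries, in which Asns was higher in both states, also had higher erythroid and monocyte and lower neutrophil marker sums, given above. The part of these cells was not tested.

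The wider pathway was described with 133 other genes in 7 lists, also written with earlier results of these data known, of which 129 were tested. With R848, 10 of the 129 rose and 6 fell in WT neutrophils, and 12 rose and 3 fell in Padi4 KO neutrophils. That is 7.75% higher and 4.65% lower in WT, beside 7.18% and 10.8% of all genes, and 9.30% higher and 2.33% lower in Padi4 KO neutrophils, beside 8.09% and 8.83%, so the shares that rose were near the background. With library size alone the split was 8 higher and 18 lower in WT and 9 higher and 7 lower in Padi4 KO neutrophils, where the shares of all genes at that scaling were 5.14% higher and 17.2% lower for WT, and 5.09% higher and 16.9% lower for the knockout. The median log2 fold change over the 112 genes with at least 10 counts on average was 0.05 in WT and 0.04 in Padi4 KO neutrophils. Among 23 chaperones and folding enzymes, none rose and 2 fell in each genotype. None of 12 cytosolic aminoacyl-tRNA synthetases, which charge tRNAs with amino acids, was called in either response.

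Of the 16 genes of amino acid synthesis and transport, 3 (18.8%) rose and 2 (12.5%) fell with R848 in WT neutrophils, beside 7.18% and 10.8% of all genes. In Padi4 KO neutrophils 3 rose and 0 fell, beside 8.09% and 8.83%. Slc7a11, the cystine carrier of the xCT transporter and a target of both ATF4 and NRF2, was at 32.5 and 25.9 CPM in unstimulated WT and 2090 and 1494 CPM in R848-treated WT neutrophils, and at 23.7 and 24.7 CPM, then 880.4 and 894.7 CPM, in Padi4 KO neutrophils. Its log2 fold change was 5.92 ± 0.14 in WT and 5.18 ± 0.13 in Padi4 KO neutrophils. Slc3a2, the heavy chain that pairs with it, had fold changes of 4.06 ± 0.16 and 2.83 ± 0.13. Slc1a5, a glutamine carrier, fell in WT neutrophils (-1.81 ± 0.51) and was not called in Padi4 KO neutrophils (-0.31 ± 0.23).

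Of 20 bZIP partners and other ATF4 network regulators tested, 5 rose and 0 fell in WT neutrophils and 6 rose and 0 fell in Padi4 KO neutrophils, beside 7.18% and 8.09% of all genes higher. Nfe2l2, encoding NRF2, rose in both genotypes, with log2 fold changes of 2.40 ± 0.12 in WT and 2.14 ± 0.11 in Padi4 KO neutrophils. Pmaip1, encoding the death factor NOXA, rose from 5 and 0 counts to 44 and 49 counts in WT neutrophils, a 21.6-fold ratio with an exact 95% interval of 8.94 to 68.2 for counting error. Its fitted WT value of 4.39 on the log2 scale ran from 3.49 to 9.27 with 1 or the other unstimulated WT library left out. The higher of these is set against a count of 0 and is no bound. In Padi4 KO neutrophils it rose by 3.71 ± 0.36. Trib1, a relative of Trib3, rose in WT neutrophils by 2.32 ± 0.15 and had a value of 0.89 ± 0.14, under 2-fold, in Padi4 KO neutrophils.

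Of the sensors, Eif2ak3, encoding PERK, fell in WT neutrophils (-1.39 ± 0.28) and was at -0.87 ± 0.21, under 2-fold, in Padi4 KO neutrophils. Eif2ak2, encoding PKR, rose in WT neutrophils (1.06 ± 0.25) and Traf2, an adaptor of IRE1, also rose there (1.10 ± 0.34). Both calls fell below 2-fold with library size alone, at 0.75 and 0.80, and that of Traf2 was also lost without unstimulated WT replicate 1 (0.97) or R848-treated WT replicate 2 (0.83). Atf6b, a relative of ATF6, was called in Padi4 KO neutrophils at 1.04 ± 0.15 and lay just under 2-fold in WT neutrophils, at 0.92 ± 0.19. The Atf6b call was lost under 8 of 15 alternatives, with values down to 0.66. Among the folding enzymes, Txndc5 fell in both genotypes (-1.85 ± 0.51 and -1.84 ± 0.24). Dnajc3, which encodes an inhibitor of PERK, fell in WT neutrophils (-1.08 ± 0.29), a call that was lost without R848-treated WT replicate 2 (-0.63) and with separate models for each genotype (-0.96). Pdia4 fell in Padi4 KO neutrophils (-1.33 ± 0.28).

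The difference between the R848 responses was called for 6 of the 129 genes, 5 (3.88%) lower and 1 (0.775%) higher in Padi4 KO neutrophils, beside 1.26% and 3.44% of all genes. As given above, the balance over all genes turns with the scaling. Relative log expression factors gave 7 lower and 0 higher, and DESeq2 gave 3 lower and 0 higher but no adjusted p for 90 of the 129 genes. Trib1 had the largest of these differences relative to its error. It was at 88.1 and 86.3 CPM in unstimulated WT and 477.6 and 399.9 CPM in R848-treated WT neutrophils, and at 72.3 and 83.4 and then 142.1 and 151.6 CPM in Padi4 KO neutrophils. The difference was -1.43 ± 0.22 on the log2 scale (adjusted p = 2.5e-08, quasi-likelihood test of edgeR, Benjamini-Hochberg). The genes named here were picked by their call in this contrast, so their p-values are a description and not an independent test. Cebpb, encoding a dimer partner of ATF4, had a difference of -0.77 ± 0.13 (adjusted p = 3.6e-07, edgeR), with levels of 368.0 to 376.1 and then 1094 to 1394 CPM in WT and 455.4 to 458.3 and then 880.0 to 913.2 CPM in Padi4 KO neutrophils. Slc3a2 had a difference of -1.23 ± 0.26 (adjusted p = 0.00026, edgeR). Ssr2, a subunit of the translocon-associated protein complex, Eif2ak2 and Ddit4, encoding the mTORC1 inhibitor REDD1, had differences of -1.47 ± 0.40, -1.04 ± 0.34 and 1.74 ± 0.57, with adjusted p of 0.012, 0.056 and 0.063 in edgeR. The call of Ddit4 was lost under 7 of 13 alternatives, relative log expression factors (1.59) and 6 that leave out a library. That of Eif2ak2 was lost under 5 of these 13, all of which leave out a library. The 13 do not include a false discovery rate of 0.05, at which neither gene was called. Without 1 library their values ran from 1.24 to 2.08 and from -1.41 to -0.91, and the call of Ssr2 was lost without R848-treated Padi4 KO replicate 1 (-1.25).

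The 12 aminoacyl-tRNA synthetases and the amino acid genes were the lists that differed most often between the genotypes. All 12 synthetases had a positive Padi4 KO against WT value in both states. Of them, 6 were called higher without stimulation and 10 after R848, with median log2 fold changes of 0.70 and 1.32. Of 16 genes of amino acid synthesis and transport, 8 were higher and none lower without stimulation, and 8 were higher and 3 (18.8%) lower after R848. Their medians were 1.29 and 1.29. The background of genes called higher was 9.54% without stimulation and 9.44% after R848, and with library size alone it was 15.5% and 15.3%. DESeq2 called 3.88% and 3.16% of all genes higher, and 14 and 12 of the 129 genes of all lists. The counts per list given here come from the main edgeR fit, and none were made at these other settings. The background of genes called lower was 14.4% and 7.84%.

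As examples chosen after their values were seen, Aars, the alanyl-tRNA synthetase, was at 30.9 and 32.8 CPM in unstimulated WT and 32.7 and 31.9 CPM in R848-treated WT neutrophils. In Padi4 KO neutrophils it was at 61.0 and 63.8 CPM without stimulation and 119.9 and 112.1 CPM after R848. Its Padi4 KO against WT log2 fold change was 0.98 ± 0.25 without stimulation and 1.84 ± 0.23 after R848. Iars, the isoleucyl-tRNA synthetase, had values of 1.69 ± 0.32 and 2.13 ± 0.38. Shmt2, a mitochondrial enzyme of serine and one-carbon metabolism, had values of 1.85 ± 0.30 and 3.39 ± 0.41, and Slc7a5, a carrier of large neutral amino acids, had values of 2.12 ± 0.39 and 1.80 ± 0.33. The 3 amino acid genes lower after R848 were Slc7a11 (-1.01 ± 0.08), Slc3a2 (-0.75 ± 0.10) and Slc38a2. Erythroid, monocyte and plasma cell marker sums were higher in the same Padi4 KO libraries, the last mostly through Jchain, and the part of these cells was not tested.

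**Figure D4:**
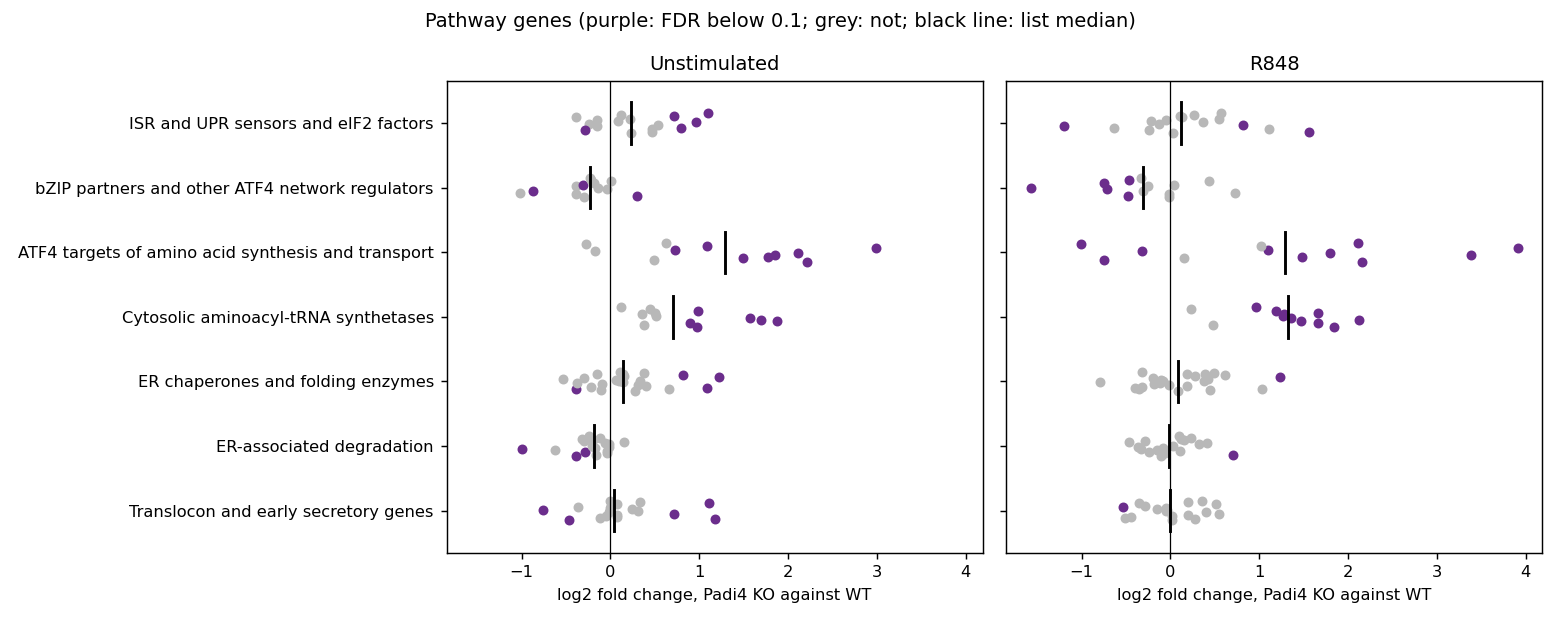
Log2 fold change of Padi4 KO against WT neutrophils for the pathway genes with at least 10 counts on average, in 7 lists, without stimulation (left) and after R848 (right), from 2 libraries per group. Each point is a gene, purple points passed a false discovery rate of 0.1, and black lines are list medians, which are 0.70 and 1.32 for the synthetases and 0.14 and 0.09 for the chaperones.

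The other lists are given as counts, to be read beside 9.54% of all genes higher and 14.4% lower without stimulation, and 9.44% higher and 7.84% lower after R848. Of 20 bZIP partners and other regulators tested, 1 was higher and 2 lower without stimulation, and 0 were higher and 5 (25.0%) lower after R848. Of the 19 sensors and eIF2 factors, 5 were higher and 1 lower and then 2 higher and 1 lower. The chaperones had 3 higher and 1 lower and then 1 higher and 0 lower, and the 19 degradation genes had 0 higher and 3 lower and then 1 higher and 0 lower. The 20 translocon and early secretory genes had 3 higher and 2 lower and then 1 higher and 1 lower. Over all 129 genes, 26 (20.2%) were higher and 9 (6.98%) lower without stimulation, which became 42 and 1 with library size alone (15.5% and 4.59% of all genes) and 31 and 5 with relative log expression factors (10.7% and 12.3% of all genes). After R848 23 (17.8%) were higher and 10 (7.75%) lower, which became 38 and 8 with library size alone (15.3% and 3.40% of all genes) and 21 and 18 with relative log expression factors (8.08% and 11.1% of all genes).

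The genes whose pattern over the 8 libraries was nearest to that of Atf4, by the root mean square difference of centred log2 CPM among 2918 genes with at least 50 counts on average, were Shoc2 (0.082), Pdlim7 (0.10), Ube2z (0.11), Pdlim5 (0.11) and Atp1b3 (0.11). Shoc2, for example, was at 54.1 and 48.3 CPM in unstimulated WT, 147.0 and 104.4 CPM in R848-treated WT, 47.5 and 51.5 CPM in unstimulated Padi4 KO and 82.6 and 84.5 CPM in R848-treated Padi4 KO neutrophils. Only 4 of the other 9 genes had enough counts to be compared, and none of these 4 was among the 5 nearest.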

How the data were processed

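RNA of 8 libraries was sequenced on a MiSeq from an unstranded kit. The authors trimmed reads with cutadapt 1.16, mapped them to mm10 with STAR 2.5.3a and counted them per gene with HTSeq 0.6.1p1; the deposited values are raw counts, without normalization. The annotation and strand setting are not given in the sources used here. The summary lines of HTSeq were left out, and 87.0% to 89.4% of each library's reads lay on genes. FastQC 0.11.7 was used for read quality.

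The 10 genes and all lists were chosen with earlier results of these data known. Genes with at least 1 count in at least 2 libraries (12254) were fitted in R 4.3.3 with edgeR 4.0.16 (TMM factors, robust quasi-likelihood fit, 1 mean per group over all 8 libraries), and p-values were adjusted by Benjamini-Hochberg over all of them. An R848 response counted as called with a false discovery rate under 0.1 and over 2-fold, and any other contrast with that rate alone. A standard error is the absolute log2 fold change over the root of F, or, for the difference of Ddit3, the root of the summed squares of both responses' errors. CPM and the floors of 3 counts used TMM factors, and marker sums used library totals. Intervals and floors cover counting error only. With 2 libraries per group no permutation test of the group labels can pass the usual thresholds for a single gene. P-values set each contrast against a spread estimated from these libraries, over all 4 groups and with values shared between genes.

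Named pathway genes were those called for the difference of responses and, per list, up to 3 called in the WT response and 2 in the Padi4 KO response with the largest change and at least 20 counts on average; Aars, Iars, Shmt2, Slc7a5 and Slc38a2 were added after their values were seen. Duplicates were compared by chi-square over genes with at least 20 summed counts, and each pair differed by more than counting noise (smallest chi-square per gene 1.05). Alternatives were DESeq2 1.42.0, library size alone, relative log expression factors, the filterByExpr filter, no filter, a replicate block, separate models, a false discovery rate of 0.05, and each library left out; those for named pathway genes were added after seeing the data. Promoter sequences are from RefSeq (GRCm38.p6) and exon lengths from GENCODE (GRCm38).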

Additional observations from a re-analysis of the deposited data

Results flagged for a closer look

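The difference of the R848 response between the genotypes passed a false discovery rate of 0.1 in edgeR's quasi-likelihood model for 7 of the genes named. These genes were chosen with results of this contrast known, so the values are a description and no independent test. Atf4 had a difference, Padi4 KO minus WT, of -0.67 on the log2 scale, and -1.04 to -0.61 with each library left out. Trib1 (-1.43), Cebpb (-0.77) and Slc3a2 (-1.23) were lower in Padi4 KO neutrophils, as were Ssr2 (-1.47) and Eif2ak2 (-1.04). Ddit4 was higher (1.74), a call lost under 7 of 13 alternatives and, like that of Eif2ak2, also at a false discovery rate of 0.05. With 2 libraries per group no single library could be tested as standing apart.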

How the results depend on the processing

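Every called value of the 10 genes kept its direction under all alternatives run. Over all their values, settings other than leaving out a library left 302 with the same call and direction; 4 lost and 5 gained a call, 17 uncalled values changed sign, and 1 reversed past the false discovery rate: the R848 value of Hspa5 in Padi4 KO neutrophils, -0.28 with library size alone. Atf4 in WT neutrophils fell just under 2-fold (0.999) with library size alone. For the difference of responses, relative log expression factors called 2 of the 10 genes against 1, and leaving out a library 1 to 3; for the unstimulated genotypes this gave 1 to 3 against 2. Of the pathway genes called, DESeq2 gave 3 against 6 for the difference (with no adjusted p for 90 of 129 genes), 9 against 15 for the Padi4 KO response, 15 against 35 between unstimulated genotypes and 19 against 33 after R848. The filterByExpr filter gave 10 for the difference, library size alone 26 against 16 for the WT response, and leaving out a library 3 to 9 for the difference and 19 to 43 between unstimulated genotypes. The cause was not tested. Library size alone moved the median of all genes from -0.07 to -0.38 in the WT response, from 0.08 to -0.30 in the Padi4 KO response, from -0.16 to 0.12 between unstimulated genotypes and from 0.00 to 0.21 after R848. Same-numbered libraries of different groups did not deviate together (correlations -0.006 to 0.036 over 2919 genes). Duplicates of most groups were close to counting noise, so this check cannot tell whether the numbers pair libraries. The replicate block left the members' calls at 5, 4, 1, 2 and 4 and gave 7 pathway genes for the difference. Depth limits Chac1, Trib3 and unstimulated Atf3, with under 10 counts in most libraries.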
